A study of Mus musculus with 96 samples.

Results

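Secreted factors made by the liver, often called hepatokines, were followed through their transcripts in the liver of 6 mouse strains fed a control diet or a calorie-restricted diet. The set comprised 8 genes by name, namely Fetub, Angptl4, Angptl6, Gdf15, Inhba, Inhbc, Inhbe and Enho, and a gene entered when the array annotation tied a probe set, the array's group of short probes for 1 transcript, to its symbol alone. A probe set met this condition for 7 of the 8 genes, with 12 probe sets in all, of the 14816 genes tested on the array, and Gdf15 was not analysed here. Liver RNA came from 96 male mice. They belonged to 5 inbred strains, CBA/J, DBA/2J, 129S1/SvImJ, C3H/HeJ and C57BL6/J, and to B6C3F1/J, whose parents are a C57BL6/J and a C3H/HeJ mouse. Each strain had 8 mice on the control diet and 8 on a diet with 25% fewer calories, begun at 8 weeks of age and kept for 14 weeks, until 22 weeks of age. All mice arrived at 6 weeks of age, lived alone in their cages and first ate 84 kcal per week of a purified diet, built on the AIN93M formula, for 2 weeks. One mouse gave 1 array, with no pooling, and no genetic change or further agent was named for any group. Values are log2 of the MAS5 signal, a brightness, so a difference of 1 is a doubling, and "called" means a limma p adjusted by Benjamini-Hochberg over all genes tested of under 0.05. Differences are restricted minus control, each with its standard error (SE).

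Hepatokines carry signals from the liver to other tissues, and several respond to feeding state. The inhibin beta subunits pair by disulfide bonds into activins and inhibins of the TGF-beta family: Inhba encodes the beta A subunit of activin A, while Inhbc and Inhbe encode the beta C and beta E subunits, which are made mainly in liver. Angptl4 encodes an inhibitor of lipoprotein lipase that is known to respond to fasting, Angptl6 an angiopoietin-related growth factor, Fetub the protease inhibitor fetuin-B, and Enho the precursor of the peptide adropin.

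Inhbc and Inhbe are next to each other, with 0 genes between them in the RefSeq gene table, and both lie on the minus strand of chromosome 10. Promoter windows of 250 bases before to 50 bases after the start site were taken from RefSeq (GRCm38.p6) for 6 of the 8 genes. The windows of the 3 inhibin beta subunit genes are shown because these were the members whose transcripts differed most between the diets. Capitals mark matches on either strand to 4 motifs: the nuclear receptor half-site AGGTCA, the FOXO motif TGTTTAC, the CEBP-ATF motif TGATGNAA and the E-box CACGTG. The Inhbc window lies at chr10:127370499-127370798 and the Inhbe window at chr10:127351799-127352098, both on the minus strand. The Inhba window lies at chr13:16011601-16011900 on the plus strand.
Inhbc: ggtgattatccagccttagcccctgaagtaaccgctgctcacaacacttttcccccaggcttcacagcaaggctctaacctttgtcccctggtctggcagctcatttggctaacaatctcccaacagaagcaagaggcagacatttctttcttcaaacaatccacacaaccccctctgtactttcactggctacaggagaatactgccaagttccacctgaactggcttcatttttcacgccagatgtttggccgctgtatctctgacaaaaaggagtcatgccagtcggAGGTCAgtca
Inhbe: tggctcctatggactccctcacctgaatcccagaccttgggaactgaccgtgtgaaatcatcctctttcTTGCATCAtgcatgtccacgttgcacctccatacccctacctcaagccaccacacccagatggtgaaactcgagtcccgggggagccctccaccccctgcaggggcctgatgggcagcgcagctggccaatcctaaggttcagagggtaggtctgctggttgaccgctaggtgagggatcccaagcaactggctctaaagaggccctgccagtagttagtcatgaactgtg
Inhba: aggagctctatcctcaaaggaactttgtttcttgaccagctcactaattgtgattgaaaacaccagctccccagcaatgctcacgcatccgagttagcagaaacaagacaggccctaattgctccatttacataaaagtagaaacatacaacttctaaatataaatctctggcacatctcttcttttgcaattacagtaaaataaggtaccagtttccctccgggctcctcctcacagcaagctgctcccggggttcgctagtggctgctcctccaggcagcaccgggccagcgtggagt
The Inhbc window held 1 nuclear receptor half-site, 41 bases into the transcript, and this motif was in 16.3% of all 32851 windows. The Inhbe window held 1 CEBP-ATF motif, TTGCATCA on the gene's strand, against 3.97% of all windows. The Inhba window held none of the 4 motifs, of which FOXO stood in 3.65% and the E-box in 7.15% of windows. No motif was shared by these 3 windows, and a match describes letters only.

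The arrays of 3 groups bear on several values below. The median log2 signal of an array lay between 6.21 and 7.5 in 94 arrays, but was 8.65 for B6C3F1/J control replicate 2 and 8.29 for DBA/2J restricted replicate 6. Restricted CBA/J mice had array medians between 6.99 and 7.5 and their controls between 6.42 and 6.63, with no overlap (exact permutation test, adjusted p = 0.00303). In that strain the mean log2 signal of hepatocyte markers was 15.3 in controls and 16.87 in restricted mice, and that of lymphocyte markers 5.37 and 6.94 (exact permutation tests, adjusted p = 0.00303 and 0.00727), and 40.7% of all genes were called. The signal of Gapdh probes at the 3' end minus that at the 5' end, a measure of RNA integrity, went from -0.40 in CBA/J controls to -0.03 in restricted mice (adjusted p = 0.00303). In C57BL6/J the same measure for beta-actin went from 0.81 to 1.07 and the mean log2 signal of endothelial markers from 9.55 to 9.85 (exact permutation tests, adjusted p = 0.0162 and 0.00303). The labelled tissue showed liver markers, with a mean log2 signal of 16.74 for Alb, the gene of serum albumin. Of 51 marker genes of 10 cell types, 13 were called higher and 3 lower on average under restriction, where 15.2% and 12.4% of all genes were. Averaged over strains, marker signals rose by 0.40 for hepatocytes, 0.23 for endothelial cells, 0.37 for lymphocytes and 0.39 for pancreatic acinar cells. Adjusted p by permutation within strains was 0.00013, 0.000195, 0.0466 and 0.0466, and no other averaged array measure was under 0.05. In CBA/J these differences were 1.56 for hepatocytes, 1.58 for lymphocytes and 1.22 for pancreatic acinar cells. In the other strains they ran from -0.11 to 0.34, from -0.67 to 0.64 and from -0.29 to 0.57. Lymphocyte markers had a control mean of 5.77, below the mean array median of 6.71, and 0 of 6 were called on average. Averaged over strains, the 6 tested hepatocyte markers differed by between -0.10 and 1.01. Summed hepatocyte markers ranged over the groups from 18.02 to 19.04 on the control diet and from 17.91 to 20.18 on the restricted diet. Whole liver was measured, so fewer cells of a type and less RNA per cell cannot be told apart, and the part of these measures in the results was not tested.

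Averaged over the 6 strains, the 3 inhibin beta subunit transcripts fell under restriction, and Angptl4 was called higher by a small amount. That is 3 of 7 members called lower and 1 of 7 called higher, where 12.4% of all genes were called lower and 15.2% higher. The members' median difference was -0.13, against 0.07 over all genes. Fetub, Angptl6 and Enho were not called, with differences of -0.13 ± 0.11 (SE), -0.06 ± 0.08 and -0.01 ± 0.16. Their limma intervals of 95% ran from -0.34 to 0.09 for Fetub, from -0.22 to 0.09 for Angptl6 and from -0.34 to 0.32 for Enho. In the plot of diet differences, Inhba, Inhbc and Inhbe lie left of 0 in 6 of 6 strains, although Inhbc in CBA/J moved to 0.026 under quantile normalization and to 0.081 with the array median as a covariate. Inhba, not called in B6C3F1/J, lay between 0.09 and 0.27 there with array weights, with that covariate or without the arrays with raised medians, and at 0.52 in CBA/J with its probe sets averaged. Fetub, Angptl4, Angptl6 and Enho fall on both sides.

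**Figure D1:**
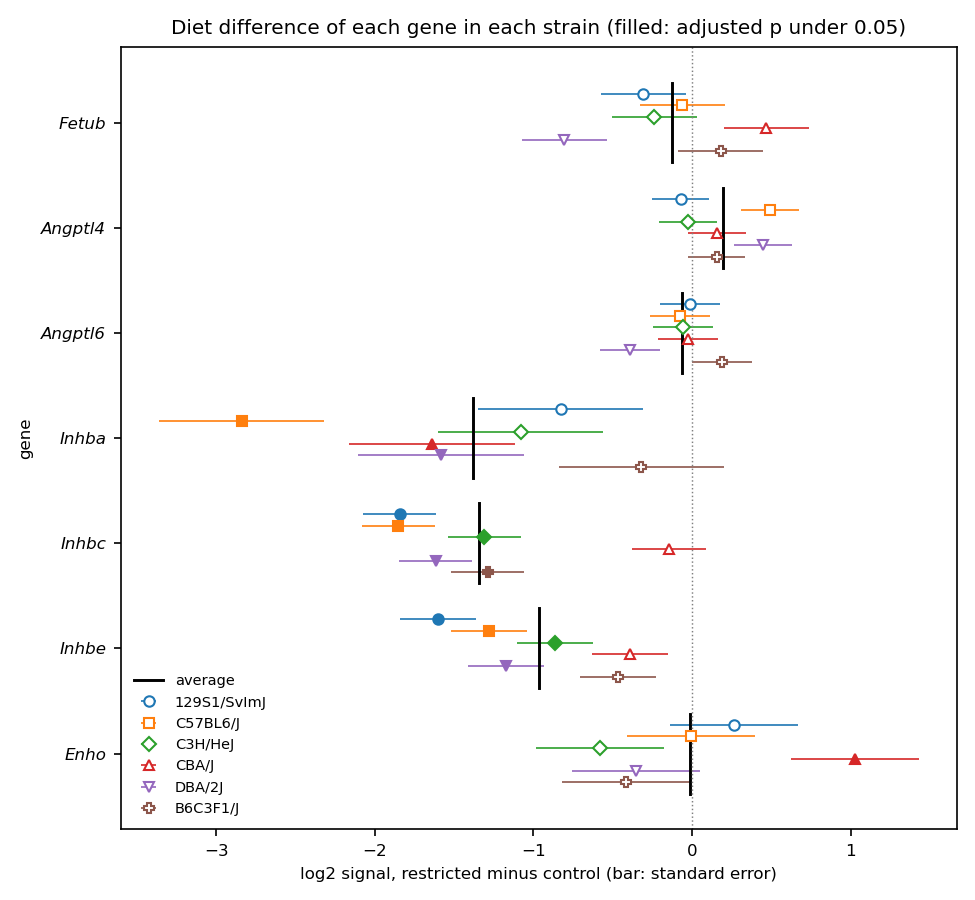
Difference in log2 signal (restricted minus control, x axis) of each of the 7 measured genes (y axis) in each strain, with bars for the standard error, filled symbols for an adjusted p under 0.05 and a black line for the average over strains. Of 42 comparisons 13 are filled, 12 of them left of 0 in the 3 inhibin beta subunit genes and 1 right of 0, Enho in CBA/J.

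Inhbc, the beta C subunit, had the smallest p of the members. Over the strains its mean log2 signal was 10.91 on the control diet and 9.57 under restriction, a difference of -1.34 ± 0.09 (limma, adjusted p = 2.89e-22), or 2.54-fold lower. In 129S1/SvImJ the control mice had a lowest, median and highest log2 signal of 10.58, 11.6 and 12.25, and the restricted mice 9.23, 9.61 and 10.28. All 8 restricted mice of that strain lay below all 8 controls. In C57BL6/J the control values were 10.29, 10.91 and 11.19, and the restricted values 8.46, 8.81 and 9.78, again with no overlap.

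Overlap appeared in the other strains. The controls of DBA/2J spanned 9.79 to 11.67 with a median of 10.98, and the restricted mice 8 to 10.13 with a median of 9.49, so that 7 of 8 restricted mice lay below every control. In B6C3F1/J the controls spanned 10.19 to 11.15 (median 10.93) and the restricted mice 8.86 to 10.25 (median 9.47), with 7 of 8 again below every control. In C3H/HeJ the spans were 9.97 to 11.61 (median 11.29) and 9.08 to 10.38 (median 9.69), with 6 of 8 below. CBA/J stood apart: its controls spanned 9.89 to 11.02 with a median of 10.2, and its restricted mice 9.98 to 10.45 with a median of 10.2, and no restricted mouse lay below all controls.

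The diet difference of Inhbc was called in 5 of 6 strains. It was -1.84 ± 0.23 (SE) in 129S1/SvImJ, -1.85 ± 0.23 in C57BL6/J, -1.31 ± 0.23 in C3H/HeJ, -1.62 ± 0.23 in DBA/2J and -1.29 ± 0.23 in B6C3F1/J, with limma adjusted p between 3.82e-09 and 6.94e-05 in all but 129S1/SvImJ, where it was 2.19e-09. In CBA/J it was -0.15 ± 0.23 (adjusted p = 0.628, interval -0.6 to 0.31), and the restricted group of this strain is the one whose arrays had raised medians. The size of the Inhbc difference depended on strain (limma F test of the interaction, adjusted p = 0.000127). Inhbc and Inhbe were the 2 of 7 members called in that test, where 23.9% of all genes were called, a share close to that of the members.

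Pairs of strains show where the Inhbc differences parted. Each of the 5 pairs that hold CBA/J was called, with the differences between diet effects running in size from 1.14 ± 0.33 against B6C3F1/J to 1.71 ± 0.33 against C57BL6/J, where CBA/J had the smaller fall each time (adjusted p between 0.00015 and 0.0192). None of the other 10 pairs was called for Inhbc. Over all genes and pairs, 5.65% of such differences were called. Without CBA/J no member was called in the interaction test: the adjusted p became 0.681 for Inhbc and 0.266 for Inhbe.

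**Figure D2:**
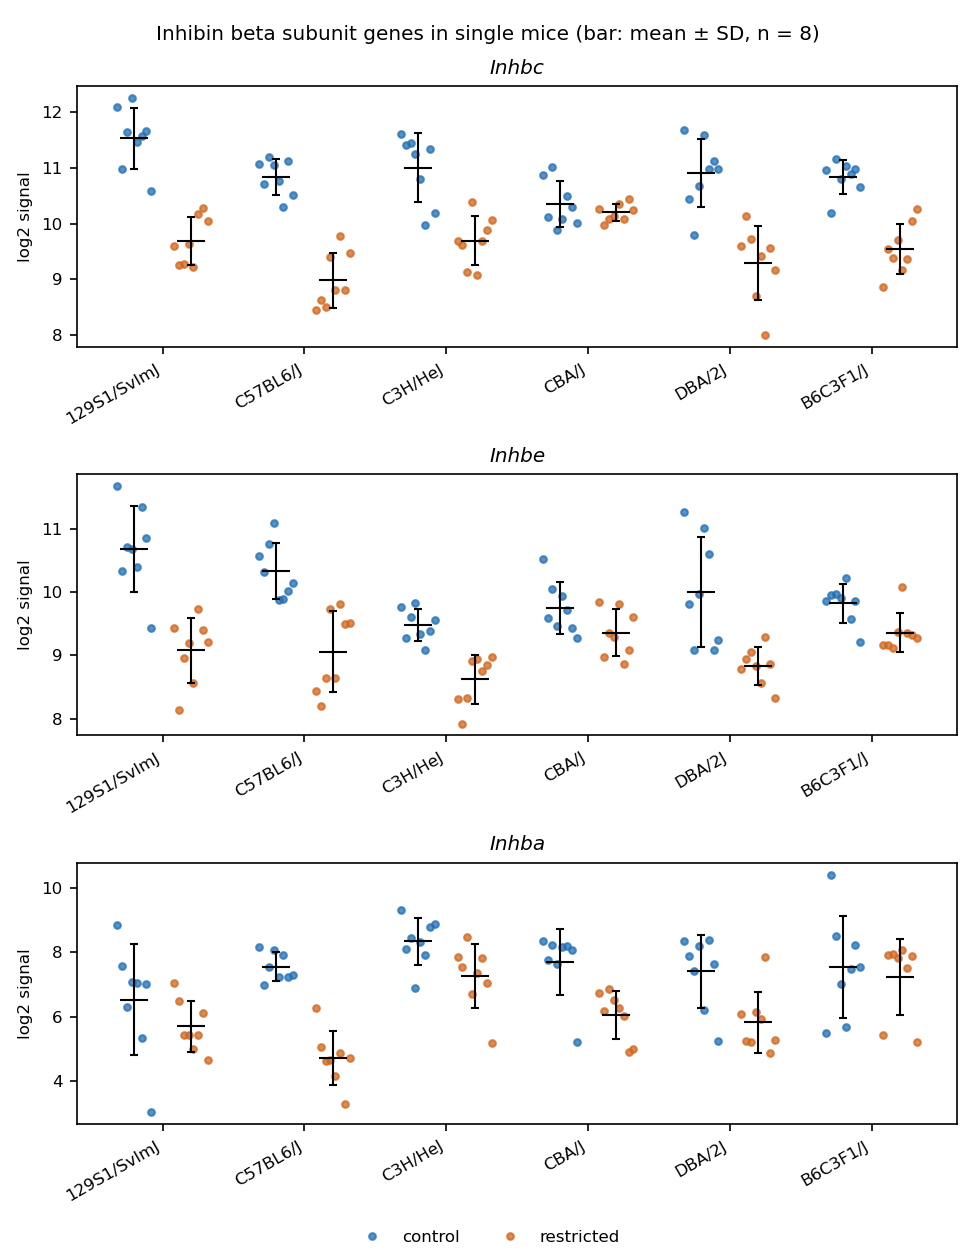
Log2 signal (y axis) of Inhbc, Inhbe and Inhba in each mouse, by strain (x axis) and diet (blue control, orange restricted), with the mean and SD of 8 mice as black bars. Restricted mice lie below all controls for Inhbc in 129S1/SvImJ and C57BL6/J, for Inhbe in C57BL6/J and C3H/HeJ and for Inhba in C57BL6/J, while the Inhbc values of CBA/J lie at 1 level.

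Inhbe, the beta E subunit, also fell on average. Its mean log2 signal was 10.02 on the control diet and 9.05 under restriction, a difference of -0.96 ± 0.1 (SE; limma, adjusted p = 4.18e-14), or 1.95-fold lower. In C57BL6/J the controls had a lowest, median and highest log2 signal of 9.87, 10.23 and 11.11, and the restricted mice 8.2, 9.07 and 9.82. In C3H/HeJ the controls had 9.08, 9.48 and 9.83, and the restricted mice 7.92, 8.8 and 8.98. The groups did not overlap in these 2 strains, although the medians of C3H/HeJ differed by less than those of C57BL6/J. In 129S1/SvImJ the controls had 9.43, 10.7 and 11.68, and the restricted mice 8.14, 9.21 and 9.73, with 6 of 8 restricted mice below every control.

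Inhbe was lower in 6 of 6 strains and called in 4, with differences of -1.60 ± 0.24 in 129S1/SvImJ, -1.28 ± 0.24 in C57BL6/J, -0.86 ± 0.24 in C3H/HeJ and -1.18 ± 0.24 in DBA/2J (limma, adjusted p = 4.26e-07, 0.000109, 0.0314 and 0.000437). The call in C3H/HeJ was lost when any 1 of 7 single arrays was left out, with an adjusted p of up to 0.106, and under quantile normalization, with 0.0552. That in DBA/2J was lost in a fit of its 2 groups alone (0.0548). In CBA/J the difference was -0.39 ± 0.24 (adjusted p = 0.178), and in B6C3F1/J it was -0.47 ± 0.24 (adjusted p = 0.291). The DBA/2J controls ranged widely, from 9.08 to 11.27 with a median of 9.89, against 8.32 to 9.3 with a median of 8.85 under restriction. In B6C3F1/J the controls spanned 9.21 to 10.22 (median 9.89) and the restricted mice 9.12 to 10.08 (median 9.3), with 3 of 8 restricted mice below every control. The spans in CBA/J were 9.28 to 10.54 (median 9.66) on the control diet and 8.87 to 9.85 (median 9.33) under restriction. Strain dependence was called for Inhbe (F test of the interaction, adjusted p = 0.0162), and 2 of its 15 pairs of strains were called. Without the arrays with medians above 7.3 the interaction was not called (adjusted p = 0.111). The fall in 129S1/SvImJ exceeded the difference in CBA/J by 1.21 ± 0.34 (adjusted p = 0.0161) and that in B6C3F1/J by 1.14 ± 0.34 (adjusted p = 0.0263).

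Inhba, the beta A subunit of activin A, is measured by 2 probe sets that did not move alike. The brighter one, 1422053_at, represents the gene here, and its signal was at or above the array median in 54 of 96 arrays, so the size of its differences is uncertain. Its mean log2 signal was 7.51 on the control diet and 6.13 under restriction, a difference of -1.38 ± 0.21 (SE; limma, adjusted p = 1.11e-07), or 2.61-fold lower. The second, 1458291_at, reached the array median in 8 of 96 arrays, the fewest that the filter allows, and differed by 0.50 ± 0.29 (adjusted p = 0.208 among all probe sets). With both averaged, the Inhba difference was -0.44 ± 0.20 and was not called (adjusted p = 0.0952).

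Among strains, C57BL6/J had the largest Inhba difference by 1422053_at. Its controls had a lowest, median and highest log2 signal of 6.97, 7.43 and 8.15, and its restricted mice 3.29, 4.69 and 6.27. The 2 groups did not overlap, and the difference was -2.84 ± 0.52 (limma, adjusted p = 7.23e-05). The second probe set differed by 1.06 ± 0.70 in C57BL6/J (adjusted p = 0.671 among all probe sets). With both averaged the difference was -0.89 ± 0.49 and was not called (adjusted p = 0.497). In CBA/J the controls spanned 5.21 to 8.35 (median 8.11) and the restricted mice 4.9 to 6.85 (median 6.23), and the fall was called at -1.64 ± 0.52 (adjusted p = 0.00872). The second probe set went the other way in that strain, from a mean of 3.98 to 6.65, a difference of 2.67 ± 0.70 (adjusted p = 0.00162 among all probe sets). It reached the array median in 3 of 8 restricted and 0 of 8 control arrays of CBA/J. Without these 3 arrays it would not have passed the filter, so its test in this strain is not independent of the filter. Restricted CBA/J arrays also had raised medians.

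DBA/2J gave an Inhba difference of -1.58 ± 0.52 (limma, adjusted p = 0.0476), with controls from 5.24 to 8.38 (median 7.75) and restricted mice from 4.86 to 7.86 (median 5.61). Its highest restricted value is from replicate 6, the array with a median of 8.29, and without both arrays with medians above 8 the difference was -1.87 ± 0.51 (adjusted p = 0.00823). The call was lost when any 1 of 16 other single arrays was left out and in 6 of 15 alternatives, with adjusted p from 0.0501 with every probe set tested to 0.302 with the probe sets averaged, where the difference was -0.91 ± 0.49. The others were no filter (0.0553), plain variances without trend (0.0525), a fit of the DBA/2J groups alone (0.197) and a fit without CBA/J (0.0557). In 129S1/SvImJ the difference was -0.83 ± 0.52 (adjusted p = 0.486), in C3H/HeJ -1.08 ± 0.52 (adjusted p = 0.458) and in B6C3F1/J -0.32 ± 0.52 (adjusted p = 0.811). The medians in these 3 strains were 7.03 and 5.44, 8.38 and 7.46, and 7.52 and 7.85 on the control and restricted diets, and the groups overlapped in each. The interaction test did not call Inhba (adjusted p = 0.0787), and 1 of 15 pairs was called, C57BL6/J with a fall larger than the difference in B6C3F1/J by 2.52 ± 0.74 (adjusted p = 0.0236). The interaction was called in 6 of 14 alternatives, among them the replicate block (adjusted p = 0.0366), 75th-percentile centring (0.0464), array weights (0.000404) and the fit without the arrays with medians above 8 (0.0115), and was at 0.498 with the probe sets averaged.

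By strain, the members called numbered 2 of 7 in 129S1/SvImJ, 3 in C57BL6/J, 2 in C3H/HeJ, 2 in CBA/J, 3 in DBA/2J and 1 in B6C3F1/J. The share of all genes called was 5.26% in 129S1/SvImJ, 3.71% in C57BL6/J, 1.95% in C3H/HeJ, 40.7% in CBA/J, 6.75% in DBA/2J and 4.6% in B6C3F1/J. In CBA/J, Inhba was called lower and Enho higher. The groups did not overlap in 5 of the 42 comparisons of a member in a strain, and in 3.29% of such comparisons over all genes. These 5 lay in C57BL6/J, 129S1/SvImJ and C3H/HeJ, where the share over all genes was 2.49%, 2.05% and 1.22%, against 12% in CBA/J, 0.776% in DBA/2J, 1.21% in B6C3F1/J and 1.55% over the 5 strains other than CBA/J.

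Angptl4, the lipoprotein lipase inhibitor, had a mean log2 signal of 11.86 on the control diet and 12.05 under restriction, by 1417130_s_at. The difference was 0.19 ± 0.07 (SE; limma, adjusted p = 0.042), or 1.14-fold, higher in 4 of 6 strains. The call was lost when any 1 of 29 single arrays was left out (adjusted p of up to 0.0614), without CBA/J (0.0922), with no filter on low signals (0.0501) and with arrays centred on their 75th percentile (0.13). In C57BL6/J the controls had a lowest, median and highest log2 signal of 11.57, 12.08 and 12.19, and the restricted mice 12.03, 12.56 and 12.75, with 7 of 8 restricted mice above every control. The difference there was 0.49 ± 0.18 (adjusted p = 0.134), and in DBA/2J 0.45 ± 0.18 (adjusted p = 0.129). In the other strains it was between -0.07 and 0.16, and no strain alone was called, although C57BL6/J was called in 3 and DBA/2J in 4 of 15 alternatives (adjusted p down to 0.000303 and 0.0371). A further probe set of Angptl4, 1453410_at, reached the array median in 3 arrays and was not tested.

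Fetub, whose product fetuin-B inhibits a protease of the egg and so protects fertility, was above the array median in 96 of 96 arrays. Its DBA/2J controls spanned 13.51 to 14.85 (median 13.78) and its restricted mice 10.29 to 14.18 (median 13.63), and the difference of -0.81 ± 0.27 missed the threshold (limma, adjusted p = 0.0509). It was called when any 1 of 12 single arrays was left out (adjusted p down to 0.0169) and in 4 of 15 alternatives (down to 0.033). The lowest value is that of replicate 6, whose array median was 8.29, and without the arrays with medians above 8 the difference was -0.39 ± 0.18 (adjusted p = 0.182). In B6C3F1/J control replicate 2, the array with a median of 8.65, Fetub was at 11.65, against 14.06 to 14.44 in the other 7 controls. CBA/J controls spanned 12.65 to 14.16 (median 13.83) and restricted mice 13.8 to 14.87 (median 14.16), a difference of 0.47 ± 0.27 (adjusted p = 0.153), which was called in 4 of 14 alternatives. Its value ran from 0.23 under quantile normalization (adjusted p = 0.492) to 1.31 with each array's median in the model (1.71e-05), and without the arrays with medians above 8 it stayed at 0.47 (0.0209). Array medians of the diet groups did not overlap in CBA/J, so the fit with the median cannot separate it from diet there. In the remaining 4 strains the differences lay between -0.31 and 0.18. Among pairs of strains, the Fetub differences of CBA/J and DBA/2J were called apart by 1.27 ± 0.38 (adjusted p = 0.0273) with replicate 6 of DBA/2J included.

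Angptl6 had the narrowest span of group means, from 9.39 to 9.86. Its differences ran from -0.39 ± 0.19 in DBA/2J (limma, adjusted p = 0.219) to 0.19 ± 0.19 in B6C3F1/J (adjusted p = 0.657), and the groups overlapped in every strain. The lowest values were 7.74 in DBA/2J restricted replicate 6 and 8.14 for control replicate 2 of B6C3F1/J, the arrays with the highest medians, and 7.94 in CBA/J restricted replicate 5.

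Enho, the adropin precursor gene, differed more between strains than between diets. In CBA/J the controls had a lowest, median and highest log2 signal of 7.26, 8.41 and 9.51, and the restricted mice 6.23, 9.68 and 10.79. With 5 of 8 restricted mice above every control and 1 below, the difference was 1.03 ± 0.40 (SE; limma, adjusted p = 0.0343). The call was lost when any 1 of 8 single arrays was left out, in a fit of the CBA/J groups alone (adjusted p = 0.127), under quantile normalization (0.0796), with 75th-percentile centring (0.0855) and with each array's median in the model (0.139). Without the arrays with medians above 7.3, which include 5 of the 8 restricted CBA/J arrays, the difference was -0.02 ± 0.50 (adjusted p = 0.977). In the other 5 strains it ran from -0.58 ± 0.40 in C3H/HeJ (adjusted p = 0.753) to 0.26 ± 0.40 in 129S1/SvImJ (adjusted p = 0.86).

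Enho has 3 more probe sets. Single probe sets of Enho are given with p adjusted among all probe sets. The next brightest, 1452893_s_at, was called higher in CBA/J too, at 1.11 ± 0.41 (limma, adjusted p = 0.0274). In B6C3F1/J it was called lower, at -1.42 ± 0.41 (adjusted p = 0.0327), where the representative 1428739_at differed by -0.42 ± 0.40 (adjusted p = 0.659). The interaction test of 1452893_s_at was called (adjusted p = 0.00377), unlike that of 1428739_at (adjusted p = 0.173). For Enho as a gene that test was called in 2 of 14 alternatives, averaged probe sets (adjusted p = 0.000336) and array weights (0.0227). With the probe sets averaged, the B6C3F1/J difference was -1.20 and was called (limma, adjusted p = 0.0041). The largest fall in that mean was -2.20 ± 0.77, in the dim 1454585_at (limma, adjusted p = 0.0883 among all probe sets). Its highest B6C3F1/J control was 9.13, against a control median of 5.47. These controls include the array with a median of 8.65. The dimmer 1433382_at and 1454585_at, at or above the array median in 38 and 15 of 96 arrays, were called in no strain.

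**Figure D3:**
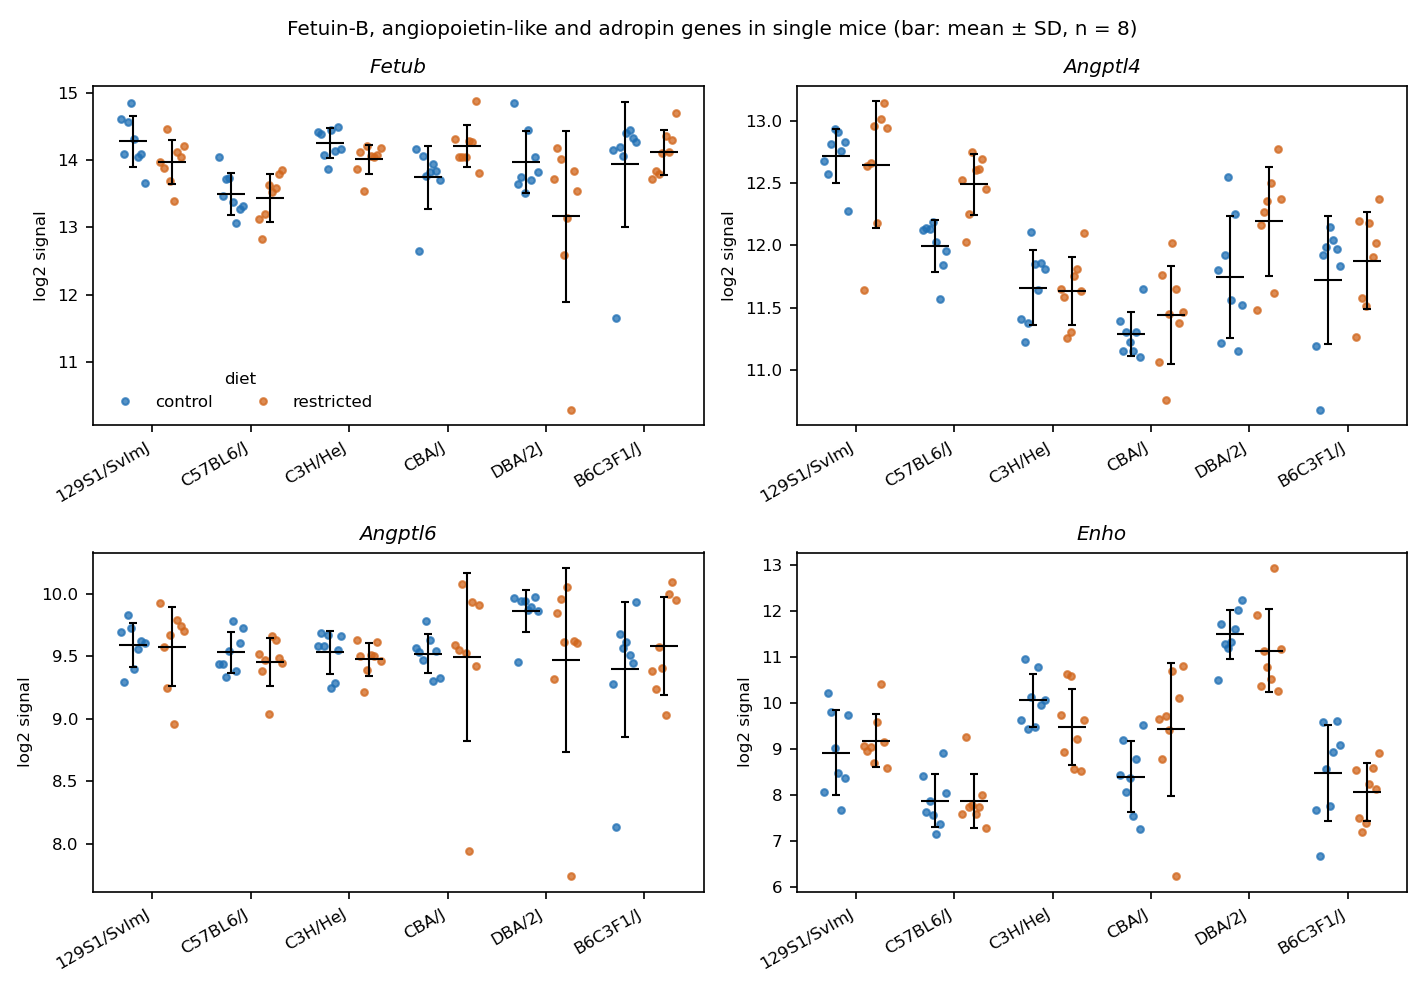
Log2 signal (y axis) of Fetub, Angptl4, Angptl6 and Enho in each mouse, by strain (x axis) and diet (blue control, orange restricted), with the mean and SD of 8 mice as black bars. Enho is highest in DBA/2J on both diets, Angptl4 is highest in 129S1/SvImJ, and 1 DBA/2J restricted mouse and 1 B6C3F1/J control mouse lie far below the rest for Fetub and Angptl6.

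Strain levels on the control diet were called for 4 of 7 members, Angptl4, Inhbc, Inhbe and Enho, where 43.6% of all genes were called. On the restricted diet, 6 of 7 were called, all but Angptl6, where 66.3% of all genes were called. Of 105 member comparisons of 2 strains on the control diet 27 were called, or 25.7%, and over all genes 12.7% of such pairs were called. Enho gave 9 of the 27, Angptl4 6 and Angptl6 0. On the restricted diet 38 of 105 were called, where 23.4% of all such pairs were. There Enho gave 11, Angptl4 8 and Angptl6 0. The 15 pairs of a gene share the same 6 groups, so they are not independent.

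Enho had the widest span of strain means, 3.62 on the log2 scale among the controls (F test, adjusted p = 1.74e-12). DBA/2J was highest, with controls from 10.5 to 12.24 (median 11.48), and its mean of 11.49 exceeded that of C3H/HeJ, 10.06, which was next (adjusted p = 0.00921). C3H/HeJ in turn exceeded 129S1/SvImJ at 8.92 (adjusted p = 0.0476). Below it, B6C3F1/J at 8.48, CBA/J at 8.4 and C57BL6/J at 7.87 were not called different from their neighbours in the order. The lowest DBA/2J control lay above the highest C57BL6/J control, 8.92. Under restriction the order again began with DBA/2J at 11.14 and C3H/HeJ at 9.47 (adjusted p = 0.00108 between them) and ended with C57BL6/J at 7.87. The 1452893_s_at probe set gave the same first and second strains among controls, with means of 11.12 and 9.57 (strain F test, adjusted p = 1.45e-16 among all probe sets).

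Angptl4 came next by the control F test (adjusted p = 7.87e-09). Its highest control mean was 12.72 in 129S1/SvImJ, which exceeded C57BL6/J at 12 (adjusted p = 0.00286). The controls of 129S1/SvImJ spanned 12.27 to 12.93, above all controls of C57BL6/J (11.57 to 12.19), C3H/HeJ (11.23 to 12.1) and CBA/J (11.11 to 11.65). Then followed DBA/2J at 11.75, B6C3F1/J at 11.72, C3H/HeJ at 11.66 and CBA/J at 11.29, none called different from its neighbour. Under restriction the order of strains was the same, and no neighbours were called different.

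Inhbc and Inhbe were both highest in 129S1/SvImJ on the control diet, at mean log2 signals of 11.53 and 10.68. For Inhbc the order went on with C3H/HeJ at 11, DBA/2J at 10.91, C57BL6/J at 10.84, B6C3F1/J at 10.83 and CBA/J at 10.35 (strain F test, adjusted p = 0.00112). Without CBA/J this test did not call Inhbc (adjusted p = 0.0642). For Inhbe it was C57BL6/J at 10.34, DBA/2J at 10.01, B6C3F1/J at 9.82, CBA/J at 9.75 and C3H/HeJ at 9.48 (adjusted p = 0.000199). No neighbours in either order were called different, while 4 of 15 pairs were called for Inhbc and 5 of 15 for Inhbe. CBA/J, the lowest strain for Inhbc among controls, was the highest under restriction, at 10.2.

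The remaining members were not called for strain differences among controls. Inhba had a wider span than Angptl4, Inhbc or Inhbe, and ran from 6.53 in 129S1/SvImJ to 8.33 in C3H/HeJ (strain F test, adjusted p = 0.077), Fetub from 13.5 in C57BL6/J to 14.28 in 129S1/SvImJ (adjusted p = 0.0777) and Angptl6 from 9.39 in B6C3F1/J to 9.86 in DBA/2J (adjusted p = 0.336). Their orders held no neighbours called different. The control F test called Inhba in 5 of 14 alternatives (adjusted p from 0.00235 to 0.606), Fetub in 5 of 14 (1.88e-07 to 0.182) and Angptl6 in 1 of 14 (0.0304 to 0.368). Under restriction Inhba ran from 4.72 in C57BL6/J to 7.25 in C3H/HeJ (adjusted p = 5.84e-05), and Fetub from 13.16 in DBA/2J to 14.21 in CBA/J (adjusted p = 0.00144).

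The B6C3F1/J cross was set against the mean of its parents on the control diet. The 7 members differed from it by between -0.49 ± 0.35 for Enho and 0.06 ± 0.23 for Fetub, and 0 of 7 were called by limma, nor did any have an unadjusted p under 0.05. Over all genes, 8.94% were called.

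The members were then placed among genes that share their pathways. Beside each list stand the shares over all genes, 15.2% called higher and 12.4% called lower, and several list counts are near them. Some genes, such as Acvr2a and Acvr2b, are counted in more lists than the one in which they are described. Of 18 tested genes of the activin and inhibin pathway, 2 were called higher and 5 lower, with a median difference of -0.11 against 0.07 over all genes. Fst, which encodes follistatin, a secreted antagonist of activins, rose by 0.86 ± 0.13 (limma, adjusted p = 1.01e-07). Acvr2b, a type II activin receptor, rose by 0.92 ± 0.17 (adjusted p = 1.06e-05), and Pcsk6, a proprotein convertase, fell by 0.48 ± 0.09 (adjusted p = 1.29e-05). Inha and Inhbb, the alpha and beta B subunits that complete the family, differed by 0.02 ± 0.29 and 0.00 ± 0.21 and were not called (adjusted p = 0.965 and 0.992). Their control means were 5.79 and 7.33, against a mean array median of 6.71, so a change in Inha could hardly be measured. Fst and Acvr2b also lay near that median among controls, at 6.94 and 7.10.

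Among 10 tested genes of proposed or established receptors of the members, 1 was called higher and 2 lower, with a median of 0.01. Acvr2a, the other type II activin receptor, fell by 0.24 ± 0.05 (limma, adjusted p = 0.00013), and Itgav, an integrin subunit, fell by 0.26 ± 0.07 (adjusted p = 0.00281). Of 9 other angiopoietin-like genes, lipases and partners, 2 were called higher and 1 lower, with a median of 0.16. Gpihbp1, which anchors lipoprotein lipase to the capillary wall, rose by 0.45 ± 0.07 (adjusted p = 2.65e-08), Lmf2 rose by 0.35 ± 0.09 (adjusted p = 0.00172), and Sdc1, the proteoglycan syndecan-1, fell by 0.57 ± 0.08 (adjusted p = 2.13e-08). Lpl itself, the lipase that Angptl4 inhibits, differed by -0.28 ± 0.17 (adjusted p = 0.243).

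Of 17 other tested hepatokines and endocrine factors, 4 were called higher and 5 lower, with a median of 0.15. Serpina12, the gene of vaspin, fell by 2.24 ± 0.17 (limma, adjusted p = 5.09e-20), Igfbp1, which binds insulin-like growth factors, rose by 1.55 ± 0.13 (adjusted p = 4.88e-17), and Manf, a factor of the endoplasmic reticulum, fell by 0.76 ± 0.09 (adjusted p = 5.76e-11). Of 17 integrated stress response genes, 5 were called higher and 3 lower (median 0.1), with Atf5, a transcription factor, at a difference of -0.84 ± 0.10 (adjusted p = 5.87e-11) and Asns, asparagine synthetase, higher by 1.51 ± 0.22 (adjusted p = 1.84e-08). Vldlr, a lipoprotein receptor in the same list, rose by 1.07 ± 0.13 (adjusted p = 6.37e-11).

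A list of PPAR-alpha targets, the fatty-acid oxidation program that includes Angptl4 as a known target, had 1 of 14 genes called higher and 7 lower, with a median of -0.29. Vnn1 fell by 1.89 ± 0.11 (limma, adjusted p = 1.17e-27), Acot1 fell by 1.93 ± 0.18 (adjusted p = 7.12e-15) and Slc25a20 fell by 0.71 ± 0.07 (adjusted p = 3.2e-15). Of 15 lipogenic genes 11 were called higher and 0 lower, with a median of 1.02. Acss2 rose by 1.97 ± 0.15 (adjusted p = 2.38e-20), Acly by 1.80 ± 0.14 (adjusted p = 5.88e-20) and Acaca by 1.62 ± 0.13 (adjusted p = 1.59e-19).

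Genes whose 12 group means tracked each member most closely were found by Pearson correlation over all genes tested, as a description without a test. The points share the 96 arrays and their scaling, and the best of 14816 candidates is high by selection. For Inhbc these were Ears2 (r = 0.963), Mcts2 (0.921) and Hadhb (0.91), the last a subunit of the mitochondrial fatty-acid oxidation enzyme. For Inhbe they were Lonp2, a peroxisomal protease (0.96), Ephx1 (0.948) and Mgll, monoacylglycerol lipase (0.927). Inhba was nearest Igsf11 (0.926), Cpd (0.897) and Ric1 (0.893). Enho was nearest Cela1, an elastase gene (0.924), 1500011B03Rik (0.914) and Ybx1 (0.909). Cela1 is 1 of the 3 tested markers of pancreatic acinar cells used here. Their mean log2 signal was 7.92 in controls and 9.14 in restricted mice of CBA/J, the strain in which Enho was called (exact permutation test, adjusted p = 0.0682), and its part in the Enho values was not tested. Restricted CBA/J arrays had raised medians. Averaged over strains, Cela1, at a mean log2 signal of 12.01, differed by 0.13 and was not called (limma, adjusted p = 0.254). Of the dimmer markers, Cela2a at 5.97 rose by 0.91 (adjusted p = 0.00793) and Prss2 at 7.27 was not called (0.732). For Fetub the nearest genes were Clcn7 (0.946), Slc20a2 (0.937) and Copg1 (0.926), for Angptl4 Zfp839 (0.904), Peg3 (0.897) and Gmds (0.897), and for Angptl6 Gabarap (0.858), Gjb1 (0.848) and Vkorc1 (0.841). No gene was shared by 2 of these lists of 3.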

How the data were processed

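Liver RNA from 96 mice was hybridised to 96 single-colour Affymetrix mouse arrays, 8 per strain and diet, grouped by the labels. The authors deposited 1 linear intensity per probe set, its MAS5 signal, per the submitters' processing notes; each array's mean without the highest and lowest 2% was 500.0, so arrays had been scaled to 1 level. Of MAS5's version and settings and of the genome build, the sources used here say nothing. Values were turned into log2 values in R 4.3.3. Without the 64 spike-in and control features, 32999 of 45101 probe sets reached the array median in at least 8 arrays and were kept. GEO's platform annotation gave 34958 probe sets 1 symbol, 932 several and 9211 no symbol. The kept probe set with the highest mean stood for each gene, leaving 14816 genes. Limma 3.58.1 fitted 1 mean per group with an intensity trend and robust variances; p-values were adjusted by Benjamini-Hochberg over all genes, and for pairs of strains over all genes and all 15 pairs. Array measures were tested by two-sided exact permutation over 12870 splits in each strain, adjusted over 13 measures and 6 strains. Their averages over strains were tested by 100000 random permutations within strains, adjusted over the 13 measures. The limma fit was tested on simulated log2 values of the 14816 genes: of 40 genes lowered by 1 (log2) in every strain 87.5% were called in the averaged comparison, and in a comparison within 1 strain 62.5% of 40 lowered by 1 there, 42.5% of those raised by 1, 22.5% of those lowered by 0.5 and 7.5% of those raised by 0.5. That strain was C57BL6/J, and each effect was given to different genes, so rates for raised and lowered genes are not a comparison of directions. The simulated noise was normal and independent for each gene, without the shifts of whole arrays seen here. Replicate numbers were not used as pairs in the main fit. Deviations of same-numbered mice of a strain correlated above 0.1 in 5 of 48 pairs, which cannot exclude pairing. Median correlations by strain ran from -0.008 to 0.056 for the same number and from -0.015 to 0.008 for other numbers. The number of arrays limits the precision. Named genes were all members, up to 3 genes per list with the smallest averaged p, and the 3 genes most like each member; Alb, Inha, Inhbb and Lpl were named outside this rule, with their values seen. The members and lists were chosen with earlier results of these data known. Python 3.11.15 was used for permutation tests, sequences and figures.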

Additional observations from a re-analysis of the deposited data

Results flagged for a closer look

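In 14 of 84 combinations of a member and a group, 1 mouse lay far from the other 7, with a gap to its neighbour above 0.526 of the range of the group; chance alone marks about 1 in 20 such groups. Of these, 5 come from the 2 arrays with medians above 8. DBA/2J restricted replicate 6 was lowest for Fetub at 10.29 and Angptl6 at 7.74 and highest for Inhba at 7.86, and B6C3F1/J control replicate 2 was lowest for Fetub at 11.65 and Angptl6 at 8.14. Fetub was also lowest in CBA/J control replicate 2 at 12.65 and highest in CBA/J restricted replicate 7 at 14.87. Angptl6 was lowest in C57BL6/J restricted replicate 4 at 9.04, in CBA/J restricted replicate 5 at 7.94 and in DBA/2J control replicate 2 at 9.45. Inhba was lowest in CBA/J control replicate 8 at 5.21, and Inhbe highest in B6C3F1/J restricted replicate 5 at 10.08. Enho was highest in C57BL6/J restricted replicate 2 at 9.25 and lowest in CBA/J restricted replicate 6 at 6.23.

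The diet difference depended on strain for Inhbc (limma F test of the interaction, adjusted p = 0.000127) and for Inhbe (adjusted p = 0.0162). Neither was called without CBA/J.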

How the results depend on the processing

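The calls of Inhbc and Inhbe averaged over strains held in 14 of 14 alternatives, with differences from -1.58 to -1.31 for Inhbc and from -1.08 to -0.94 for Inhbe; Inhba held in 13, not with its probe sets averaged (-0.44). The count of members called lower on average was 3 in each setting but averaged probe sets, where it was 2, and with the replicate number as a block, where the Inhba difference was -1.38, no count of called members moved by over 1.5 times. That block left Inhbc at -1.34 and Inhbe at -0.96, Fetub in DBA/2J was then called at -0.81, and Inhba was called for the interaction (adjusted p = 0.0366) and for strain levels on the control diet (0.0359).

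Angptl4, the 1 member called higher, gave 0 calls with 75th-percentile centring, no filter, without CBA/J, and in part of the fits leaving out 1 array (0 to 1). Leaving out 1 array moved the members called to between 1 and 2 in C3H/HeJ and in CBA/J. Quantile normalization gave 1 in C3H/HeJ, 1 in CBA/J and 5 in DBA/2J, 75th-percentile centring 1 in CBA/J, averaged probe sets 1 in CBA/J and 2 in B6C3F1/J, and a fit of the 2 groups alone 1 in DBA/2J. For the interaction 5 members were called with array weights, 4 without arrays with medians above 8, 4 with each array's median as a covariate and 0 without CBA/J. With that covariate 7 members were called for strain levels on the control diet.

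Signs turned mainly in differences that were not called, and the cause was not tested. Called ones were Inhba in CBA/J, 0.52 with averaged probe sets, and Enho in CBA/J, -0.022 without arrays with medians above 7.3; Angptl6 in CBA/J became 0.47 and was called with the covariate. For the others, quantile normalization gave -0.14 for Fetub and -0.021 for Angptl4 in B6C3F1/J, 0.013 for Angptl6 and 0.026 for Inhbc in CBA/J, and 0.069 for Enho on average and 0.021 in C57BL6/J. Centring gave 0.013 for Enho in C57BL6/J. Array weights gave 0.081 for Fetub in C57BL6/J, 0.039 for Angptl4 in C3H/HeJ, 0.023 for Angptl6 in 129S1/SvImJ, and in B6C3F1/J -0.21 for Fetub, -0.080 for Angptl4, -0.014 for Angptl6 and 0.23 for Inhba. Without arrays with medians above 8, B6C3F1/J gave -0.15 for Fetub and 0.09 for Inhba. Without those above 7.3, it gave -0.14 for Fetub, -0.012 for Angptl6 and 0.27 for Inhba, and CBA/J 0.12 for Angptl6. The covariate gave 0.0066 for Fetub and 0.016 for Angptl6 on average, 0.0027 for Angptl6 in 129S1/SvImJ, -0.15 for Fetub, -0.0056 for Angptl6 and 0.12 for Inhba in B6C3F1/J, 0.081 for Inhbc in CBA/J and 0.0099 for Enho in C57BL6/J.

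The alternatives on arrays with high medians, the covariate and CBA/J were chosen after seeing the data. Every CBA/J value with the covariate is limited, because the array medians of its diet groups did not overlap and cannot be separated from diet. Scaling moved the median difference of all genes in CBA/J from 0.31 to 0.07 under quantile normalization and to 0.17 with centring. Signals near or below the array median, as for Inhba, limit the size that can be measured.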
